A study of Mus musculus with 6 samples.

Results

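The 43 genes described here act in the G2 and M phases of the cell cycle: mitotic cyclins and kinases, spindle and kinetochore proteins, and parts of the spindle checkpoint. They were chosen by name from that role, and each of the 43 symbols matched 1 of the 32285 genes in the deposited count table through its Ensembl identifier. All 43 passed the filter on low counts. Their transcripts were sequenced from GS cells, mouse germline stem cells in culture, which grow from spermatogonial stem cells of the testis, in 1 wild-type line, DBA-GFP, with 3 libraries of cells in complete medium (the control group) and 3 of cells in a medium named for 8 mM pyruvate. Both groups carry the GFP mark of the line and share its genotype. The labels do not give the time in each medium, the rest of its composition, or whether each library of a group was its own culture. The spread that the p-values are built on is therefore that of these libraries and may be technical. A glucose medium that the study also used is not analysed here. The study concerns energy balance and alanine metabolism in these cells, and the comparison asks how transcripts differ between the media.

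Entry into mitosis is driven by the kinase Cdk1 with cyclin B, which the Cdc25 phosphatases switch on and the kinase Wee1 holds off. Aurora and Polo kinases then build the spindle, the checkpoint proteins hold anaphase until every kinetochore is attached, and Cdc20 directs the anaphase-promoting complex against securin and the cyclins. Most of these genes are transcribed in a late wave, under the transcription factors B-Myb and FoxM1 with the MuvB complex, so that in bulk RNA their level follows the share of cells in G2 and M. In bulk samples, fewer cells in these phases and less RNA per cell cannot be told apart.

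In dividing cells the promoters of this wave are known for CCAAT boxes, bound by NF-Y, and for the cell cycle genes homology region, a short element bound by MuvB whose usual core is TTTGAA or TTCGAA. The promoters of 5 members are printed because they show both elements in Plk1, Ccnb2 and Top2a, CCAAT alone in Ccnb1, which is the close relative of Ccnb2, and neither in Nuf2. Kif2c, Anln, Ndc80 and Kif20b, which held the core with no CCAAT box, are not printed. They are RefSeq promoters on GRCm38.p6, from 250 bases before to 50 bases after the annotated start, written 5′ to 3′ along the gene. Capitals mark the CCAAT box and either form of the core, read on both strands, so that a CCAAT box on the other strand appears as ATTGG and the first form of the core as TTCAAA.
Plk1, chr7:122159185-122159484, plus strand: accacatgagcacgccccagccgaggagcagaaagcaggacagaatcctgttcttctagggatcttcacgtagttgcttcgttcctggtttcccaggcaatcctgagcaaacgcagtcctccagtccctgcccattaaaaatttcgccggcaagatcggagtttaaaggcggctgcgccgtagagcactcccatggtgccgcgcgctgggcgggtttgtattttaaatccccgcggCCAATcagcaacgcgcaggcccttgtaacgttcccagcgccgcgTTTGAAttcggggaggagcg
Ccnb1, chr13:100786437-100786736, minus strand: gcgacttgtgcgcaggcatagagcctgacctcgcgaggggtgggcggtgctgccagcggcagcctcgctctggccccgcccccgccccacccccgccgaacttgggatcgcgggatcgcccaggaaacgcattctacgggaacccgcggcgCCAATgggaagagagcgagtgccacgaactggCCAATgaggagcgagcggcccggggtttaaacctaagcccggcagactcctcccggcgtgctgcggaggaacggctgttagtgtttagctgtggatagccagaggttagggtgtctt
Ccnb2, chr9:70421505-70421804, minus strand: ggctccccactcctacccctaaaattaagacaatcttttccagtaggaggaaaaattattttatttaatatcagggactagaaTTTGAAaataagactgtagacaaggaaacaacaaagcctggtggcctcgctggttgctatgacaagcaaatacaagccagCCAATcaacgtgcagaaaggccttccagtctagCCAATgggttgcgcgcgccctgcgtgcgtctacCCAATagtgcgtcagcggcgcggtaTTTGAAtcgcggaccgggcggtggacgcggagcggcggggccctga
Top2a, chr11:99024140-99024439, minus strand: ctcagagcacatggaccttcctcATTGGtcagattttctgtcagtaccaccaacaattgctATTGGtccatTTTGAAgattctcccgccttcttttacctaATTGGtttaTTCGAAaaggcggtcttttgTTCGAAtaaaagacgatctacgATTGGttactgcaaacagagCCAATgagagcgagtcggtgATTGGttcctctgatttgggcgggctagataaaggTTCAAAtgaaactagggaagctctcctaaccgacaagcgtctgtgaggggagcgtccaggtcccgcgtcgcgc
Nuf2, chr1:169531415-169531714, minus strand: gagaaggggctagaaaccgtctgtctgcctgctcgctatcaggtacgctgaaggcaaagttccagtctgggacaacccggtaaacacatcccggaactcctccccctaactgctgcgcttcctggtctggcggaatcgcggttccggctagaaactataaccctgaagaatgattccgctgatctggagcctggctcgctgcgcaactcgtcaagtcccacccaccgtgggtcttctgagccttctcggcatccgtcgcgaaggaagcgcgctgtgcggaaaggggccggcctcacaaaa

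A promoter entry was found for 35 of the 43 members. Of these, 26 (74.3%) held CCAAT in at least 1 entry, against 43.1% of the 11405 tested genes with an entry and 41.1% of all 27025 genes in the promoter table. TTTGAA or TTCGAA stood in 27 (77.1%), against 16.2% and 21.7%, and both kinds of element in 23 (65.7%), against 6.81% and 8.61%. The Top2a window held 6 matches to the CCAAT box and 4 to the core, 2 of each form, and the Ube2c window 6 to the box and 1 to the core. Birc5, Mad2l1, Nuf2, Plk4 and Pttg1 held none of these letters in the window searched. The median log2 fold change between media was -0.10 for the 27 members with TTTGAA or TTCGAA and -0.100 for the 8 with neither. It was -0.076 for the 26 members with CCAAT and -0.14 for the 9 without. These splits were not tested.

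**Figure D1:**
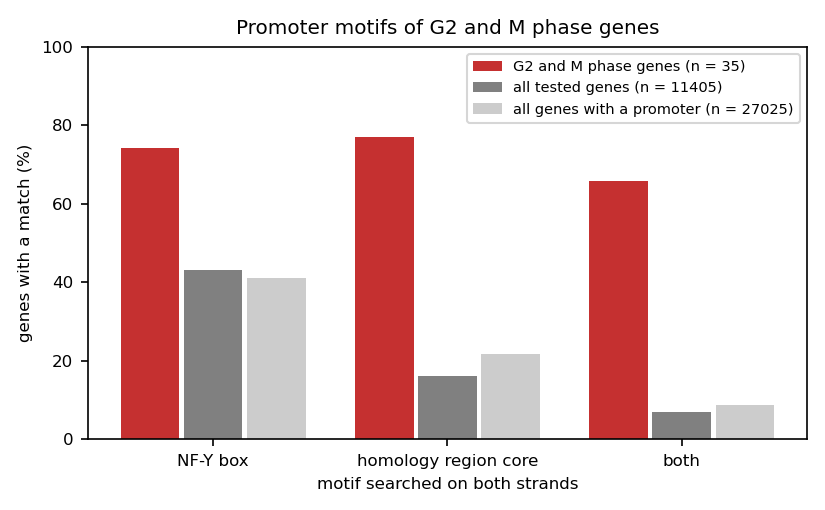
Percent of genes whose promoter entry (300 bases) holds a CCAAT box (NF-Y box), the core of the cell cycle genes homology region (TTTGAA or TTCGAA), or both, on either strand. Red bars are the 35 G2 and M phase genes with an entry, dark grey all 11405 tested genes with an entry and light grey all 27025 genes with an entry; the red bars stand at 74.3%, 77.1% and 65.7%.

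Library totals ran from 20918312 to 26413080 counts, and the 43 genes had 461 to 18522 counts per library, and replicate libraries differed beyond counting noise, with a chi-square per gene of 3.11 (controls 1 and 3) to 47 (controls 1 and 2). Levels are CPM, the counts of a gene relative to its library's total, scaled by TMM factors, a correction for library composition. Control 2 stood apart from the other libraries on the first principal component of all tested genes, at 36.5 against -4.12 and 0.81 for the other controls, and pyruvate 1 lay at the other end, at -27.2. On the second component control 2 lay at 7.33, beside pyruvate 1, 2 and 3 at 9.84, 15.1 and 12.5. Controls 1 and 3 lay at -23.4 and -21.4. Leaving out control 2 therefore leaves out the control nearest to the pyruvate libraries on this component. Values without control 2, and without both control 2 and pyruvate 1, are given after the values of each role. The 14 germ cell markers, among them Ddx4, Dazl, Zbtb16 and Gfra1, were all measured, with a summed level of 3991 to 4758 CPM, highest in control 2. Markers of differentiating spermatogonia, 8 of 8 tested and led by Sohlh2, summed to 891, 818 and 876 CPM in the controls and 893, 718 and 695 CPM in pyruvate. Pyruvate 2 and 3 lay under every control in that sum and pyruvate 1 above them. None of the 8 passed edgeR's test with all libraries (0, and 1 lower by DESeq2, against 0.905% of all tested genes). Without control 2, 2 of 8 fell, against 1.82% of all tested genes. Without both control 2 and pyruvate 1, 6 of 8 fell, against 11.2%. That last fit leaves out the pyruvate library that stood above every control in this sum. In the same fit 3 of 14 germ cell markers rose and 3 fell, and of the 13 tested markers of meiosis 3 rose and 0 fell. Of the 14 tested fibroblast markers 3 rose and 2 fell, against 12.5% higher and 11.2% lower over all tested genes. Summed fibroblast markers, 14 of 16 tested and led by Fn1, stood at 424, 493 and 424 CPM in controls 1, 2 and 3 and at 451, 404 and 412 CPM in pyruvate 1, 2 and 3. Markers of meiosis, 13 of 15 tested, summed to 525, 769 and 554 CPM in the controls and 527, 606 and 544 CPM in pyruvate, so these sums were also highest in control 2. The part of these cells in the results was not tested. Sertoli markers, 5 of 10 tested and led by Wt1 (mean 15.5 CPM), summed to 25.4 to 31.3 CPM, with Fshr at 0 counts in all libraries. Immune markers, 1 of 8 tested and led by Cd68 (mean 5.70 CPM), summed to 5.03 to 7.69 CPM, with Adgre1 at 0.

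No G2 or M phase gene passed the test between the media when all libraries were used. With edgeR's quasi-likelihood test, adjusted over all 14912 tested genes by the Benjamini-Hochberg method, 0 of 43 rose and 0 fell, beside a background of 0.0536% of all tested genes called and 0.0335% called lower. At an unadjusted p under 0.05 there were 4 of 43, against 14.4% of all tested genes, and the adjusted counts were also 0 of 43 by DESeq2, which called 2.13% of all genes (0.905% lower and 1.22% higher), and 0 of 43 by limma-voom, which called 0.0536%. The fitted values leaned to one side: 34 of 43 log2 fold changes (pyruvate minus control) lay below 0, against 51.9% of all tested genes, and their median was -0.10, against -0.010 over all tested genes. In 12 of 43 members (27.9%) the 3 pyruvate libraries lay wholly outside the 3 controls, against 22.5% of all tested genes. In 11 of them pyruvate was lower, against a background of 10.6%, and in 1 higher, against 11.9%.

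The intervals of these differences were narrow, but they rest on the spread of these libraries, which may be technical. They may not bound the difference between media across separate cultures. In 42 of 43 members the 95% interval of the fold change lay within 1.5-fold in either direction, taken gene by gene, and the exception was Ect2, with a log2 interval of -0.74 to 0.27. Fitted log2 changes ran from -0.24 for Bub1 to 0.35 for Cdc25c, and 42 of 43 were smaller than 0.25 in size. Compared per kilobase of exon, the level was highest for Cdc20, at 162 CPM per kilobase, and lowest for Cdc25c, at 5.12. In that order 39 of the 42 pairs of neighbours overlapped over the 6 libraries. Cdc20 stood clear above Ccnb2, Mad2l1 above Ndc80, and Hmmr above Cdc25c. The exon length used here merges the exons of all transcripts of a gene, 8390 bases for Mad2l1 and 6493 for Ndc80. Their longest transcripts have 7557 and 3847 bases, so the order of Mad2l1 and Ndc80 depends on the length chosen.

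**Figure D2:**
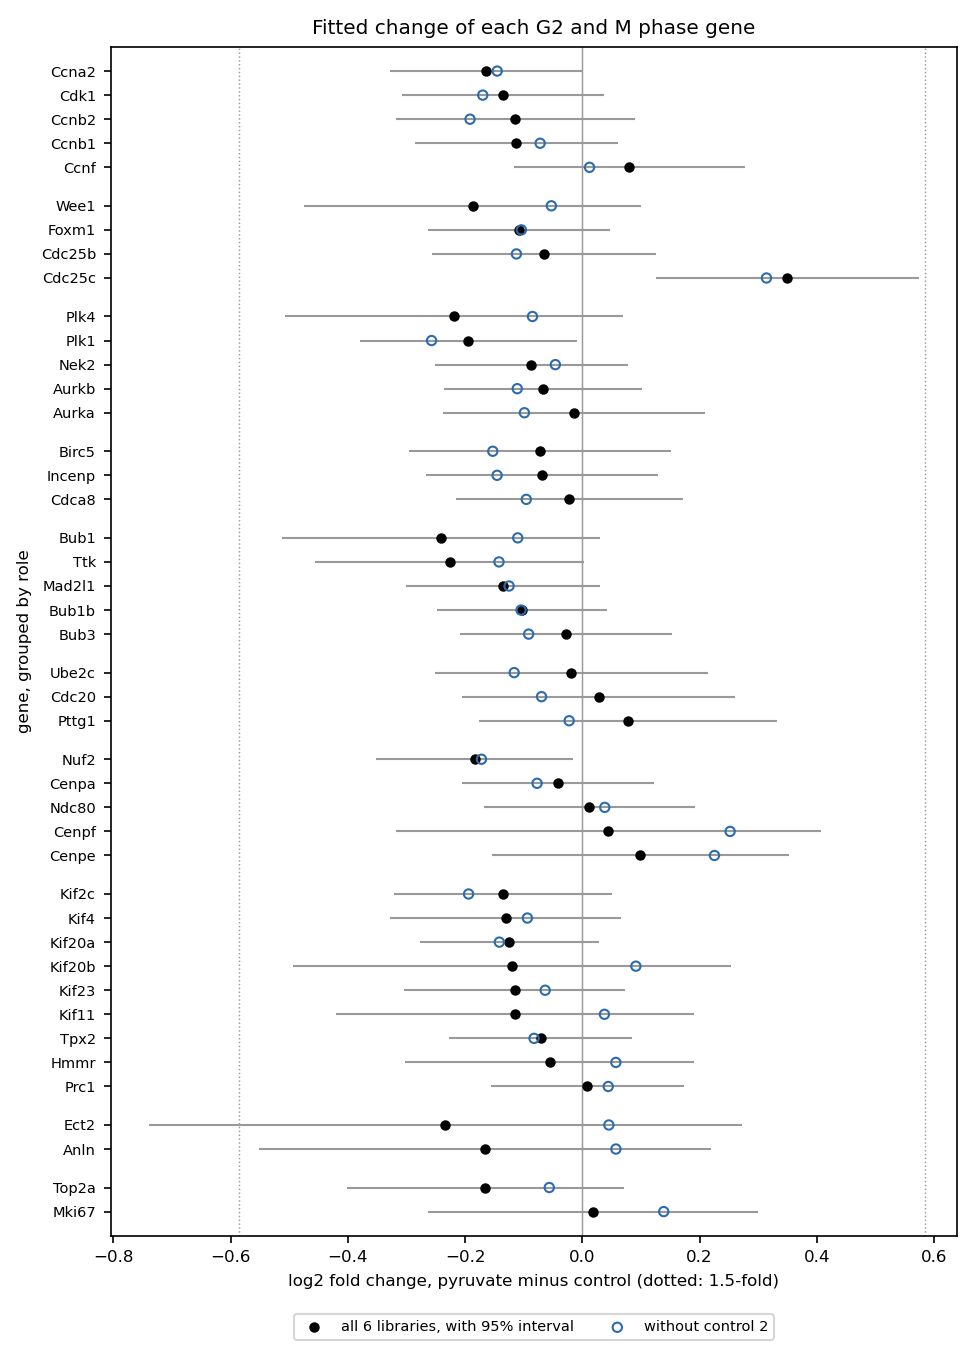
Log2 fold change of each of the 43 genes, pyruvate minus control, grouped by role; black points are the edgeR values over all 6 libraries with their 95% interval and open blue circles the values without control 2. Dotted lines mark 1.5-fold, which the intervals of 42 genes do not reach; Cdc25c lies to the right at 0.35 and most other genes a little to the left of 0.

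Among the cyclins and Cdk1, 4 of 5 lay below 0 and none passed the test. Ccna2, cyclin A2, which works from S phase into early mitosis (ENSMUSG00000027715, chromosome 3, 36564865 to 36572150), stood at 224, 229.6 and 218 CPM in controls 1, 2 and 3 and at 189, 209.8 and 200.3 CPM in pyruvate 1, 2 and 3. The groups did not overlap, and the log2 fold change was -0.16 (SE 0.072, adjusted p = 0.347). Cdk1, the kinase of mitotic entry, had 95.7, 89.8 and 97.3 CPM in the controls and 83.0, 85.3 and 89.0 CPM in pyruvate. These also did not overlap, by the narrow gap between control 2 and pyruvate 3, at -0.14 (SE 0.075, adjusted p = 0.454). Ccnb1 and Ccnb2, the B cyclins that activate Cdk1, had nearly the same fitted difference but opposite patterns among the controls. Ccnb1 had 166, 177 and 160.5 CPM in the controls and 147, 162 and 156 CPM in pyruvate (-0.11), with control 2 highest of the 6. Ccnb2 had 127, 104 and 121 CPM in the controls and 107, 111 and 107 CPM in pyruvate (-0.11), with control 2 lowest of the 6. Groups overlapped for both, with adjusted p = 0.532 and 0.6 in edgeR. Ccnf, cyclin F, a ubiquitin ligase subunit that does not act through Cdk1, stood at 0.08. Ccna2 shares exon sequence with Exosc9 on the opposite strand, so its count is uncertain to that extent. In all, 14 of the 43 members share exon sequence with another gene, 11 with one on the opposite strand; the kit keeps strand, but the setting used in counting is not given in the sources used here.

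Regulators of mitotic entry held the one member that was higher in every pyruvate library. Cdc25c, a phosphatase that activates Cdk1 (ENSMUSG00000044201, chromosome 18, 34732993 to 34751533), stood at 23.4, 21.1 and 22.0 CPM in the controls and 30.8, 26.5 and 27.4 CPM in pyruvate. All 3 pyruvate libraries lay above all 3 controls, with a log2 fold change of 0.35 (SE 0.098, adjusted p = 0.185) and a 95% interval of 0.13 to 0.57; it missed the threshold. Its exons overlap those of Gm3550 on the opposite strand over 623 bases, so this count is uncertain. Cdc25b, the relative that acts early at the centrosome, stood at -0.065. Wee1, the kinase that opposes them, had 128, 166 and 129.7 CPM in the controls and 110.0, 137 and 126 CPM in pyruvate, -0.19 (SE 0.13, adjusted p = 0.533), with overlapping groups and control 2 far above the rest. Foxm1, the transcription factor of the late wave, had 208, 215 and 217 CPM and 193, 194 and 207 CPM, -0.11 (SE 0.068, adjusted p = 0.507). Its groups did not overlap, though pyruvate 3 lay close below control 1.

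All 5 mitotic kinases lay below 0, from -0.22 for Plk4, which starts centriole duplication, to -0.015 for Aurka. Plk1, the Polo kinase of centrosome maturation and cytokinesis (ENSMUSG00000030867, chromosome 7, 122159439 to 122169873), stood at 137, 118 and 133 CPM in the controls and 111, 115 and 112 CPM in pyruvate. The groups did not overlap, pyruvate 2 lying close below control 2, and the difference was -0.19 (SE 0.081, adjusted p = 0.327). Plk1 shares 156 bases of exon with Gm44985 on the opposite strand. Nek2, a centrosome kinase, also did not overlap, at -0.087. Aurka, the Aurora kinase of spindle poles, had 86.9, 70.2 and 81.9 CPM in the controls and 81.8, 74.9 and 79.8 CPM in pyruvate, and the groups overlapped fully. Its log2 fold change of -0.015 turned positive with library totals in place of TMM. Aurkb, the Aurora kinase of the chromosomal passenger complex, had 127, 115 and 126 CPM and 119, 117 and 116 CPM, with control 2 lowest of all (-0.067, adjusted p = 0.721 in edgeR). The other 3 subunits of that complex also lay below 0 with overlapping groups. Birc5, survivin, had 73.7, 60.4 and 70.3 CPM in the controls and 62.2, 63.5 and 68.7 CPM in pyruvate (-0.072). Incenp, the scaffold, had 332, 287 and 345 CPM and 316, 294 and 309.6 CPM (-0.069), and in both genes control 2 was below every other library. Cdca8, borealin, stood at -0.022.

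The 5 spindle checkpoint genes all lay below 0, and in 4 of them the pyruvate libraries lay under all controls, which held for 10.6% of all tested genes. Bub1, a checkpoint kinase at the kinetochore, had 179, 230.0 and 179 CPM in the controls and 149, 178 and 171 CPM in pyruvate, -0.24 (SE 0.12, adjusted p = 0.398). Controls 1 and 3 and pyruvate 2 lay within 2 CPM of each other, and without control 2 the log2 fold change was -0.11. Ttk, the kinase Mps1 that starts checkpoint signalling, had 93.9, 111 and 93.5 CPM and 76.8, 88.7 and 89.3 CPM, -0.23 (SE 0.10, adjusted p = 0.353). Mad2l1, Mad2, which holds Cdc20 inactive, had 127, 128 and 123 CPM and 109, 119.5 and 116 CPM, -0.14 (SE 0.073, adjusted p = 0.441), with pyruvate 2 just under control 3. Bub1b, BubR1 of the same inhibitor complex, stood at -0.10 and did not overlap either, and Bub3 stood at -0.028 and did.

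Downstream of the checkpoint the groups overlapped in all 3 members. Cdc20, which activates the anaphase-promoting complex, had 336, 257 and 304 CPM in the controls and 319, 299 and 296 CPM in pyruvate, 0.028 (SE 0.10, adjusted p = 0.921). All 3 pyruvate libraries lay between the lowest and the highest control, and the sign turned without control 2 (-0.07). Ube2c, the ubiquitin-conjugating enzyme of the complex, had 104, 82.2 and 100.9 CPM and 98.7, 93.3 and 91.1 CPM; its fold change of -0.018 turned positive with library totals. Pttg1, securin, which restrains separase until anaphase, had 35.1, 27.9 and 34.7 CPM and 36.5, 33.0 and 33.5 CPM, 0.078 (SE 0.11, adjusted p = 0.784). In all 3 genes control 2 was the lowest library, and the 95% intervals were -0.20 to 0.26, -0.25 to 0.21 and -0.18 to 0.33.

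At the kinetochore Nuf2 differed most by its test and the large proteins Cenpe and Cenpf lay on the other side of 0. Nuf2, a subunit of the Ndc80 complex that binds microtubules (ENSMUSG00000026683, chromosome 1, 169497934 to 169531464), had 68.0, 71.0 and 70.7 CPM in the controls and 61.1, 61.3 and 62.2 CPM in pyruvate. Both groups were tight and did not overlap, at -0.18 (SE 0.073, adjusted p = 0.31). Ndc80, its partner in the same complex, stood at 0.012 with overlapping groups. Whether the pair differ from each other was not tested. Cenpf, a large protein of the outer kinetochore, had 341, 532 and 385 CPM and 389.9, 439 and 468 CPM, 0.045 (SE 0.16, adjusted p = 0.918). Control 2 was the highest library and control 1 the lowest, with all 3 pyruvate libraries between them. Cenpe, a kinetochore motor, stood at 0.099 and Cenpa, the centromeric histone, at -0.041.

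Of the 9 spindle motors and microtubule proteins, 8 lay below 0, and Prc1, which bundles the central spindle, was the exception at 0.0085. Kif20a, a motor of the central spindle, had 312, 304 and 319 CPM in the controls and 277, 295 and 286 CPM in pyruvate. It was the only one of the 9 whose groups did not overlap, at -0.12 (SE 0.067, adjusted p = 0.439), and its exons share 1271 bases with Cdc23 on the opposite strand. Kif11, the motor that separates spindle poles, had 142, 192 and 147 CPM and 129.6, 157 and 158 CPM, -0.11 (SE 0.13, adjusted p = 0.733), with overlap and control 2 highest. In cytokinesis, Ect2, which activates RhoA at the furrow, had 86.9, 144 and 88.6 CPM and 69.7, 105 and 97.4 CPM, and Anln, anillin, had 131, 201 and 137 CPM and 121, 151 and 146 CPM. For both, control 2 was highest and pyruvate 1 lowest, the other 4 libraries lay closer together, and the fitted changes were -0.23 and -0.17 (adjusted p = 0.67 and 0.695 in edgeR). Without control 2 the sign turned in Kif11, Ect2 and Anln, to 0.038, 0.045 and 0.057. Top2a, the topoisomerase that untangles sister chromosomes, had 565, 728 and 613 CPM and 528, 584 and 588 CPM, -0.17 (SE 0.10, adjusted p = 0.505). Mki67, the chromosome coat protein Ki-67, widely used as a marker of cycling cells, had 446, 599 and 504 CPM and 462, 533 and 573 CPM, 0.018 (SE 0.12, adjusted p = 0.958), with a 95% interval of -0.26 to 0.30. Groups overlapped for both. The 17 members not given library by library ranged from -0.22 to 0.099, 13 below 0 and 4 above, with adjusted p from 0.468 to 0.966 in edgeR.

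**Figure D3:**
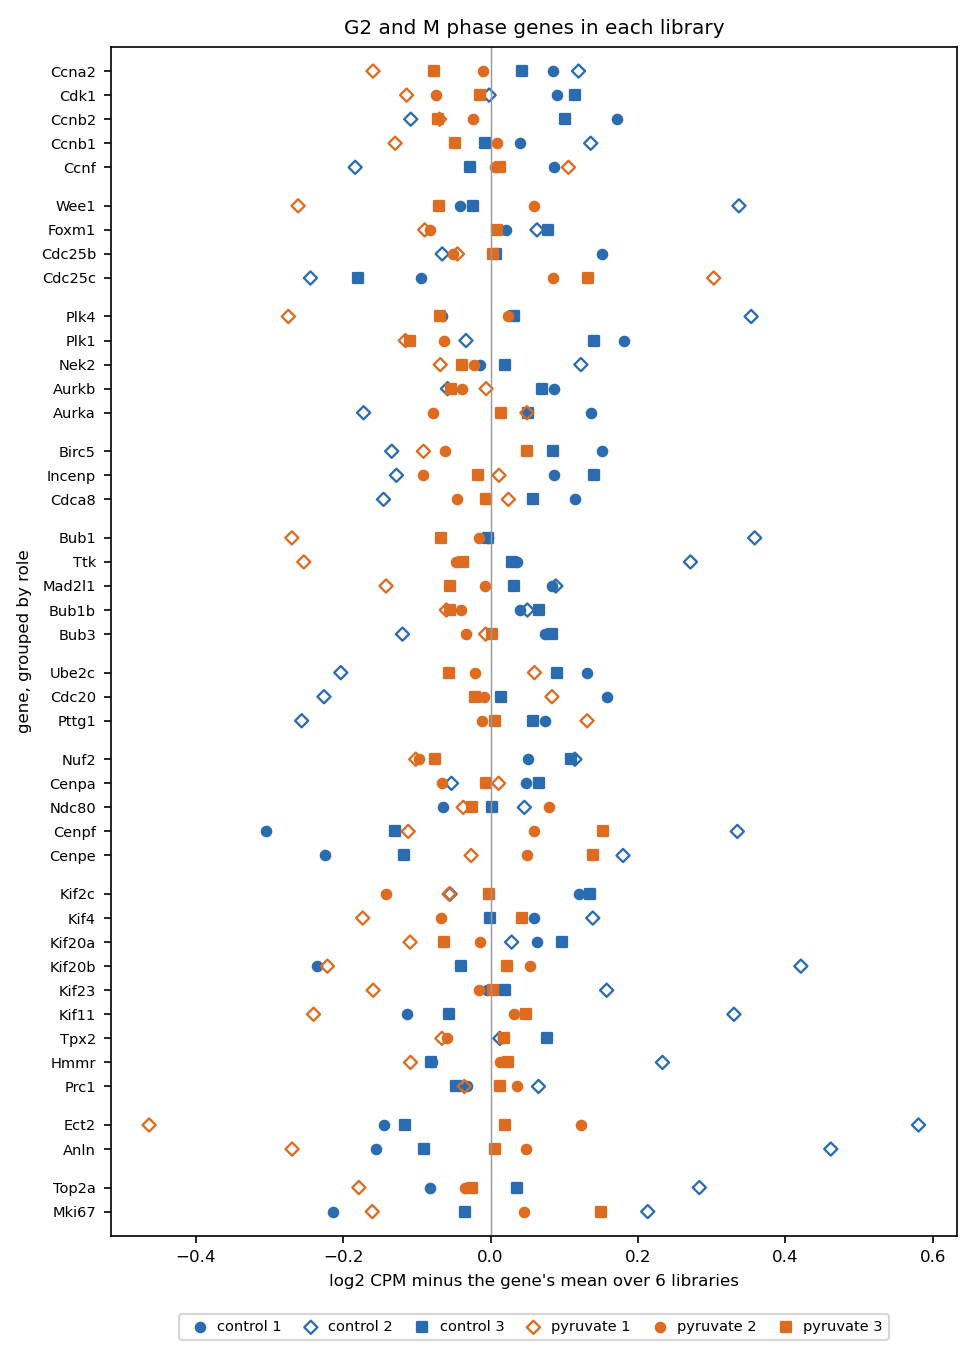
Log2 CPM of each of the 43 genes in each library, minus that gene's mean over the 6 libraries, grouped by role; blue marks are controls, orange marks pyruvate, and open diamonds control 2 and pyruvate 1. The open diamonds lie outermost in many genes: control 2 is the highest library in 21 and the lowest in 13, and pyruvate 1 the lowest in 22.

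In most members control 2 lay further from the other controls than the media lay from each other. Control 2 was the highest of the 6 libraries in 21 of 43 genes and the lowest in 13, and pyruvate 1 was the lowest in 22. The log2 distance of control 2 from the mean of controls 1 and 3 ran from -0.32 for Pttg1 to 0.71 for Ect2, with a median size of 0.21, against a median size of 0.11 for the fitted difference between media (over all tested genes these were 0.25 and 0.14). In 32 of 43 genes that distance was larger than the difference between media. The distance rests on fewer libraries than the difference, so spread alone makes it the larger on average, and control 2 enters both. Pyruvate 1 deviated from pyruvate 2 and 3 the opposite way in 35 of 43 genes, from -0.54 for Ect2 to 0.19 for Cdc25c.

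This pattern went with transcript length and base composition, in the members as in all genes. The 14 members with the shortest longest transcripts (1531 to 3227 bases), such as Ccnb2, Pttg1, Ube2c, Cdc20 and Aurka, had a median control 2 distance of -0.16, and 10 of 14 lay below 0. The 15 with the longest (4015 to 11130 bases), such as Cenpf, Mki67, Kif20b and Anln, had a median of 0.31, and 11 of 15 lay above 0. Across the 43 genes Spearman's rho of the control 2 distance was 0.60 with length and -0.68 with GC content, and over 14908 tested genes it was 0.51 and -0.53. For pyruvate 1 rho was -0.56 with length and 0.62 with GC content in the members, and -0.29 and 0.41 over all tested genes. Genes are not independent replicates, and these points share the same 6 libraries, so the values are descriptions. The fitted difference between media had a rho of -0.056 with length and 0.24 with GC content among the members. Over all 14908 tested genes it was -0.068 and 0.30.

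**Figure D4:**
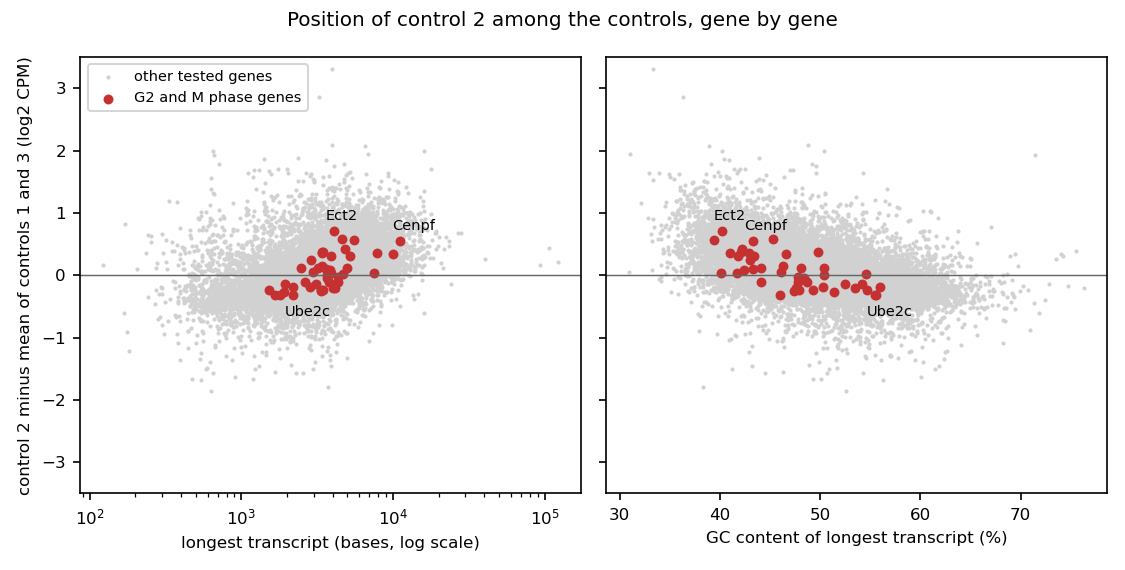
Distance of control 2 from the mean of controls 1 and 3 (log2 CPM) for each tested gene, against the length of its longest transcript (left, log axis) and that transcript's GC content (right); red points are the 43 G2 and M phase genes and grey points all other tested genes. Long, GC-poor members such as Cenpf (0.55) and Ect2 (0.71) lie above 0 and short, GC-rich ones such as Ube2c (-0.31) below it.

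Without control 2, 1 of 43 members passed edgeR's test over all genes, Plk1, which fell by 0.26 in log2 units (SE 0.059; adjusted p = 0.0391). The background in that fit was 4.16% of all tested genes in either direction, 1.82% lower and 2.33% higher. Cdc25c had a log2 fold change of 0.31 (adjusted p = 0.0991), Nuf2 -0.17 (adjusted p = 0.17) and Ccna2 -0.15 (adjusted p = 0.207) in the same edgeR fit. The median over the members was -0.085 and 31 of 43 lay below 0, while 7 turned sign (Cdc20, Kif11, Kif20b, Hmmr, Anln, Ect2 and Pttg1). Of those not yet given, Pttg1 stood at -0.022, Kif20b at 0.091 and Hmmr at 0.057. With each library's trend over GC content and length removed and all libraries kept, 0 of 43 passed (background 3.61%, with 1.96% lower and 1.65% higher). Cdc25c and Plk1 came nearest, at 0.41 and -0.24 (adjusted p = 0.057 and 0.0699 in edgeR). In that fit the median over the members was -0.085, 33 of 43 lay below 0, and sizes moved both ways. Nuf2 shrank to -0.089 (adjusted p = 0.581 in edgeR), Bub1 to -0.13, Mad2l1 to -0.041 and Ccnb1 to -0.049. Foxm1 grew in size to -0.16 and Wee1 to -0.21.

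Most fitted values given above depended on control 2. Without it, 15 members kept their sign and grew in size by over 1.5 times, 9 kept it and shrank by over 1.5 times, and 12 stayed within 1.5 times. Among those that shrank, Top2a went from -0.17 to -0.056, Plk4 from -0.22 to -0.085, Wee1 from -0.19 to -0.053, Ttk from -0.23 to -0.14 and Ccnb1 from -0.11 to -0.072. Without pyruvate 1 as well, they stood at -0.014, -0.011, 0.023, -0.081 and -0.042. Bub1, Nek2, Kif23 and Ccnf also shrank, to -0.11, -0.046, -0.063 and 0.012 without control 2. The fitted values of the passenger complex grew in size: Birc5 stood at -0.15, Incenp at -0.15, Cdca8 at -0.096 and Aurkb at -0.11 without control 2. Ccnb2 stood at -0.19, Cdc25b at -0.11, Aurka at -0.099, Ube2c at -0.12, Bub3 at -0.091 and Cenpa at -0.077. On the other side of 0, Cenpf stood at 0.25, Cenpe at 0.23, Mki67 at 0.14, Ndc80 at 0.038 and Prc1 at 0.044. None of these passed edgeR's test without control 2.

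Without both control 2 and pyruvate 1, 8 members fell and 7 rose, against 11.2% and 12.5% of all tested genes. That is 15 of 43 members beside 23.7% of all genes, from 2 libraries a group whose spread was narrowed by the choice of what to leave out. Plk1, Kif2c, Incenp, Ccnb2, Ube2c, Nuf2, Cdk1 and Kif20a fell, by 0.12 to 0.25 on the log2 scale, and their longest transcripts had 1531 to 4375 bases. Cenpf, Cenpe, Mki67, Ect2, Anln, Cdc25c and Kif20b rose, by 0.14 to 0.32, and theirs had 2634 to 11130 bases. The ranges of length overlap, and the part of length in these calls was not tested.

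A list of 126 further mitotic genes held subunits of the anaphase-promoting complex, condensin and cohesin, the inner and outer kinetochore, more spindle and cytokinesis proteins, and regulators. With all libraries 0 of 126 passed edgeR's test, and 1 fell by DESeq2, which called 0.905% of all tested genes lower. At an unadjusted p under 0.05 there were 14 of the 126 in edgeR, against 14.4% of all tested genes. The median log2 fold change was -0.066 with 91 of 126 below 0. Without control 2 the median was -0.018 with 69 of 126 below 0, and it was -0.012 without both control 2 and pyruvate 1 and -0.013 with the GC and length trend removed. The groups did not overlap in 15.1% of them, against 22.5% of all tested genes. Without control 2, 3 of 126 fell and 1 rose, against 1.82% and 2.33% of all tested genes. Gtse1, a microtubule protein that also restrains p53, had 131, 119 and 134 CPM in the controls and 99.1, 98.2 and 109 CPM in pyruvate. Psrc1, a spindle protein, had 12.8, 11.04 and 13.4 CPM and 8.21, 7.49 and 8.96 CPM, and Melk, a kinase of dividing cells, had 105, 102 and 107 CPM and 86.1, 87.8 and 85.2 CPM. Cdkn1b, the Cdk inhibitor p27, which restrains entry into S phase, had 4.83, 5.77 and 4.68 CPM and 7.41, 8.03 and 6.73 CPM. Pyruvate libraries lay on one side of all controls in each of these 4 genes. Their log2 changes without control 2 were -0.38, -0.68, -0.30 and 0.64 (adjusted p = 0.0177, 0.0193, 0.0289 and 0.0425 in edgeR).

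Genes of the earlier phases were set beside these. Of 40 S phase genes, 34 lay below 0 with a median of -0.13, and in 19 all pyruvate libraries lay under all controls, against 11 of 43 G2 and M phase genes and 10.6% of all tested genes. With all libraries 0 of the 40 passed edgeR's test, and 3 fell by DESeq2, which called 0.905% of all tested genes lower. At an unadjusted p under 0.05 there were 14 of the 40 in edgeR, against 14.4% of all tested genes. Without control 2, 7 of the 40 fell, against 1 of 43 and 1.82% of all tested genes. Of 11 genes of G1, 5 lay below 0 with a median of 0.028, and the median turned sign to -0.039 without control 2, -0.044 without pyruvate 1 and -0.077 without both. With all libraries 0 of the 11 passed edgeR's test, and 1, Ccnd1, fell by DESeq2, which called 0.905% of all tested genes lower. Ccnd1, cyclin D1, had 149.5, 161 and 152 CPM in the controls and 98.0, 106 and 104 CPM in pyruvate. Its log2 fold change was -0.58 (SE 0.074, adjusted p = 0.0592) in edgeR and -0.59 (adjusted p = 5.59e-07) in DESeq2. Without control 2 Ccnd1 fell by 0.55 (adjusted p = 0.00281 in edgeR). Its exons overlap LTO1 on the opposite strand over 1100 bases. The difference between these lists and the G2 and M phase genes was not tested.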

How the data were processed

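RNA was measured by stranded mRNA sequencing of 6 libraries. The authors deposited whole-number read counts per gene, not normalized. Per the submitters' processing notes the tools were bcl2fastq 2.20, cutadapt 4.6, STAR 2.7.11a and HTSeq 2.0.5 with the build mm10. Of the annotation release, strand setting and filters, the sources used here say nothing. The table has 3 further value columns that were not used, and 0 lines that name no gene.

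From the counts, edgeR 4.0.16 (R 4.3.3) gave robust quasi-likelihood tests of pyruvate minus control with TMM factors, after a filter at a minimum count of 10 that left 14912 genes. P-values were adjusted over all of them by the Benjamini-Hochberg method, with a threshold of 0.05. SE was derived from each fold change and its F statistic, and intervals are 95%. CPM divides each count by the tested-gene total times its TMM factor. Alternatives were DESeq2 1.42.0, limma-voom 3.58.1, other scaling and filters, a replicate block and leaving out each library. Leaving out both control 2 and pyruvate 1, and removing each library's trend over GC content and length (natural splines with 5 degrees of freedom), were chosen after seeing the data. On simulated counts for 14756 genes, the test called 56 of 100 genes given a 1.5-fold change, 97 of 100 given a 2-fold change and 17 unchanged genes. The changed genes all had a mean count of at least 100. The simulated libraries had no outlier and no trend over GC content or length, so these numbers may not hold for the real libraries. The intervals rest on the spread between libraries as well as on counting error.

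The 43 members and all lists were chosen with earlier results of these data known. Members given library by library are a set list, the member of lowest p in each of 10 roles, and any that passed with all libraries or without 1. Other mitotic genes are named where they passed in this way. Gene positions are from GENCODE M21 (GRCm38) and promoters from RefSeq (GRCm38.p6). Proteins were not analysed here.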

Additional observations from a re-analysis of the deposited data

How the results depend on the processing

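There were 416 values, for the 26 members given library by library under 16 settings. Of these, 379 kept their direction and their side of the threshold. Another 11 kept their direction and passed the threshold only in the alternative, and 26 values turned sign. The turned values include Ect2 and Anln without both control 2 and pyruvate 1, which also passed, at 0.20 and 0.14 (adjusted p = 0.00941 and 0.0338 in edgeR). Of the members, 16 never turned. All genes called numbered 8, against 14 with library totals, 15 with upper-quartile factors, 83 without a filter, 317 by DESeq2, 538 after removal of the GC and length trend and 3520 without both control 2 and pyruvate 1. Leaving out 1 library gave 0 to 625, the highest without control 2. Members that passed numbered 0 to 1 lower on leaving out 1 library, and 8 lower and 7 higher without both. Of the other mitotic genes 0 to 3 were lower and 0 to 1 higher on leaving out 1 library, 18 lower and 22 higher without both, 2 lower and 1 higher with the trend removed, and 1 lower by DESeq2. The members' median was -0.10, with -0.073 by library totals, -0.11 to -0.067 on leaving out 1 library, -0.075 without both and -0.085 with the trend removed. Library totals turned Aurka to 0.014 and Ube2c to 0.0100. Without both, Cdc20 stood at -0.11, Kif11 at 0.12, Anln at 0.14, Ect2 at 0.20, Pttg1 at -0.075 and Wee1 at 0.023; the trend turned Cdc20 to -0.012. On leaving out 1 library, or both of these, the ranges were -0.11 to 0.12 for Cdc20, -0.13 to 0.053 for Aurka, -0.20 to 0.12 for Kif11, -0.075 to 0.21 for Mki67, -0.082 to 0.32 for Cenpf, -0.28 to 0.14 for Anln, -0.36 to 0.20 for Ect2, -0.16 to 0.045 for Ube2c, -0.075 to 0.14 for Pttg1 and -0.27 to 0.023 for Wee1. The cause was not tested, apart from the narrowed spread that leaving out the outlying libraries brings by construction. Fits on 2 libraries a group carry less information on spread. In the last 150 bases of the promoters, 74.3% of members held TTTGAA or TTCGAA, against 77.1% in the whole window.

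The deviations of same-numbered libraries correlated at 0.311, 0.311 and -0.0726. These values cannot tell whether the numbers pair the samples, because libraries of different number were not compared. A fit with the replicate number as a block called 265 genes, against 8 without it, with 0 members and 1 other mitotic gene, lower.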
